A study of Mus musculus with 25 samples.

Results

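The 3 peroxisome proliferator-activated receptors (PPARs), their retinoid X receptor partners, the coactivator Ppargc1a and 28 of their known target genes in fatty acid handling form the set described here. The rule names them by gene symbol, because metabolites of phthalates activate PPARs, and uses no measured value. All 35 were found among the 24358 genes of the table, and none of them failed the quantification. By role they are 7 receptors and partners, 7 genes of lipid uptake, binding and storage, 4 of the carnitine shuttle, 5 of mitochondrial beta-oxidation, 8 of peroxisomal oxidation and acyl-CoA hydrolysis, and 4 other targets.

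Sperm of the cauda epididymis of 14 week old mice was sequenced by all-RNA-seq, which takes up short and long RNA after fragmentation, in 25 libraries of 5 conditions with 5 libraries each. C57.CTL.F1 and FVB.CTL.F1 were first generation sons of C57BL/6J and FVB/N dams given corn oil by mouth from embryonic day 9 to 19. C57.D300.F1 and FVB.D300.F1 were sons of dams given di-(2-ethylhexyl) phthalate (DEHP) in corn oil over the same days, at 300 mg per kg per day. C57.D300.F2 were sons of exposed C57BL/6J F1 males and newly bought, unexposed females, and no vehicle lineage of the second generation was analysed here. Both strains are inbred, the dams alone were dosed, and the sperm were those that swam out of the incised cauda. An earlier study had already supplied the 10 libraries of the C57BL/6J F1 conditions, called reused below, while the 15 others were made anew, so that a comparison of a reused condition with C57.D300.F2 or FVB/N is also one of library sets, and these cannot be told apart.

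PPARs are nuclear receptors that bind fatty acids and their derivatives, pair with a retinoid X receptor and switch on genes through a direct repeat of the hexamer AGGTCA with 1 base between. PPARα governs fatty acid oxidation in liver, where peroxisome proliferators such as phthalate metabolites act through it, PPARγ governs fat storage in adipose tissue, and PPARδ is widely expressed. Mature sperm transcribe little or nothing, so their RNA is what was left from spermatogenesis or taken up on the way through the epididymis, together with the RNA of any other cell in the preparation.

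The table gives 1 value per gene and condition, an estimated count that the authors' software normalised over the 5 libraries of the condition, with a variance from its model. Each value below is that count ± the SD of the model, which ranged from 0.231 to 1.76 times the count over the members, and is not a spread measured between libraries. With no value of single libraries, no comparison between conditions was tested and there are no p-values. A gene was compared where either condition had at least 10 counts, and was called higher or lower where log2 of (count + 1) differed by at least 1. The total per condition was between 6921688 and 8602900 counts.

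The promoters of the members were read for the repeat that PPAR dimers bind, since the values that follow concern genes of one receptor family. RefSeq start sites (GRCm38.p6) gave 36 promoters for 30 of the members, each from 250 bases before to 50 bases after the start. The exact repeat of AGGTCA with 1 base between was in none of the 36 promoters and in 13 of all 32851 (0.0396%). With at most 1 other base in each copy, on either strand, it was in 4 of 36 (11.1%), those of Fabp1, Slc25a20, Cd36 and Rxra, against 2.40% of all promoters. The exact single hexamer, which a repeat with other bases need not hold and that of Slc25a20 does not, was in 38.9% of the members' promoters and 16.3% of all. A match of letters is a description and not evidence of binding. Vnn1, Fabp4, Lpl, Cpt1b and Angptl4 had no entry. The promoters of Fabp1 and Slc25a20 are shown because their genes, described below, were called lower in C57.D300.F2 and FVB.CTL.F1 than in vehicle C57BL/6J. Capitals mark the repeat, which in Fabp1 lies on the opposite strand from position -67 and in Slc25a20 on the gene's own strand from position 6, with the first transcribed base counted as 0. The Fabp1 window is chr6:71199629-71199928 (+ strand) and the Slc25a20 window chr9:108661886-108662185 (+ strand).
Fabp1: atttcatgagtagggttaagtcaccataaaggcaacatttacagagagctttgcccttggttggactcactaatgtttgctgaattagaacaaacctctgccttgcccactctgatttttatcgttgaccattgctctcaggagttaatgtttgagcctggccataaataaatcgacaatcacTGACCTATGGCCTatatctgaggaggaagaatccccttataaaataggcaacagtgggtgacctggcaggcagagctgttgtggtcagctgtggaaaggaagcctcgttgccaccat
Slc25a20: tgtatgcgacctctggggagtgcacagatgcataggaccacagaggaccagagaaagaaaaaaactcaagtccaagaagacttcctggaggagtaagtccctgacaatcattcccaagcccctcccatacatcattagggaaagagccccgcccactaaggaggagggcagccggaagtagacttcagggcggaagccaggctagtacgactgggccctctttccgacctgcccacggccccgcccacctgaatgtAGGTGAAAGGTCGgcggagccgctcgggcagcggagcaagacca

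Among the receptors, Ppara and Pparg stood far higher in the reused C57BL/6J conditions than in the 3 newly made ones, while Ppard was nearly level. Ppara (chromosome 15 from 85734983 to 85802819, + strand, GRCm38), the receptor that drives hepatic fatty acid oxidation, gave 607 ± 189 counts in C57.CTL.F1 and 789 ± 253 in its exposed counterpart C57.D300.F1, then 84.5 ± 23.7 in C57.D300.F2, and in FVB/N 67.3 ± 19.7 with vehicle and 50.5 ± 15.5 with DEHP. Its count was thus 7.18 times lower in C57.D300.F2 and 9.01 times lower in FVB.CTL.F1 than in vehicle C57BL/6J, and both differences were larger than their model SD. Where 5 values follow each other below, they keep this order of conditions. Pparg, the adipogenic receptor, had 60.9 ± 18.9, 61.7 ± 19.4, 19.2 ± 7.64, 15.3 ± 7.0 and 10.2 ± 4.99 counts. Ppard, the widely expressed receptor, had 290 ± 90.5, 231 ± 76.3, 310 ± 98.2, 300 ± 108 and 291 ± 112 counts.

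Which receptor was the most abundant therefore differed between conditions. Per kb of exon, Ppara was at 1.93 times Ppard in C57.CTL.F1 and 3.17 times in C57.D300.F1, but at 0.253 times Ppard in C57.D300.F2, 0.208 times in FVB.CTL.F1 and 0.161 times in FVB.D300.F1. Ppara stayed above Pparg per kb in all 5 conditions, by 2.95 to 8.6 times.

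The partners differed less. Rxra, the main heterodimer partner in liver, had 920 ± 252 and 951 ± 266 counts in the vehicle and DEHP conditions of C57BL/6J F1, and 506 ± 118, 510 ± 120 and 483 ± 113 in C57.D300.F2 and the vehicle and DEHP conditions of FVB/N, a log2 ratio of -0.86 for C57.D300.F2 and -0.85 for FVB.CTL.F1 against C57.CTL.F1. Rxrb, the ubiquitous form, ranged from 128 ± 32.7 in C57.D300.F1 to 183 ± 44.4 in FVB.D300.F1, with the lower values in the reused conditions. Rxrg, the form of muscle and brain, was near the minimum for comparison, with 10.2 ± 5.18, 9.33 ± 4.72, 3.52 ± 2.65, 10.3 ± 5.10 and 13.6 ± 6.08 counts in the order above. Ppargc1a, the coactivator of mitochondrial biogenesis, had 63.5 ± 18.6, 67.3 ± 19.8, 43.8 ± 14.0, 37.3 ± 12.8 and 40.05 ± 13.0 counts, and was not called in any comparison.

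**Figure D1:**
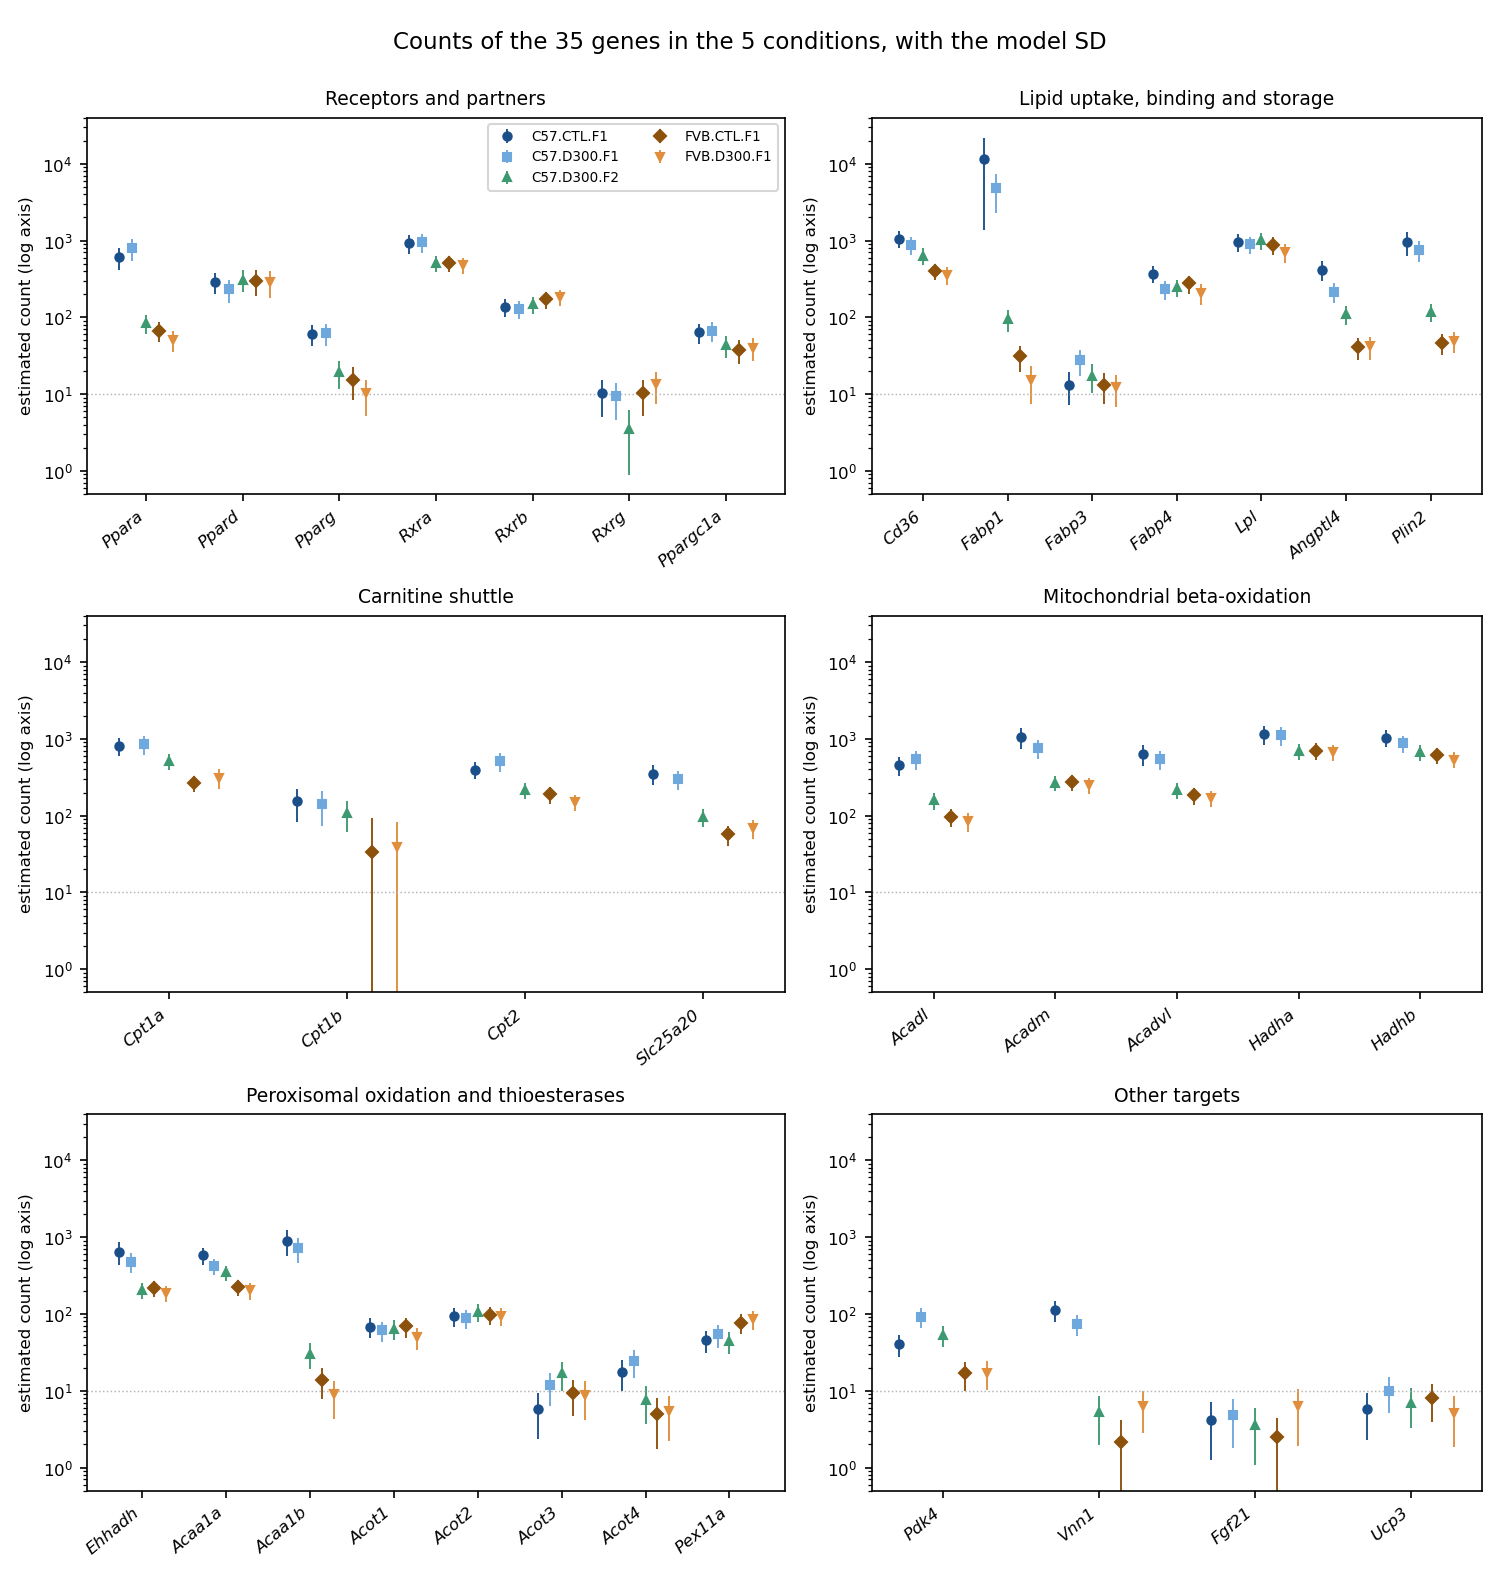
Estimated counts (vertical log axis) of the 35 genes in panels by role; symbols are the 5 conditions, bars are ± 1 SD of the quantification model cut off at the lower edge of the axis, and the dotted line is the minimum of 10 counts. Fabp1, Plin2, Ppara, Acaa1b and Vnn1 are far higher in the 2 reused C57BL/6J conditions, while Ppard, Lpl, Acot1 and Acot2 are nearly level.

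A lipid binding gene, Fabp1, had the widest range of the set. Fabp1 (chromosome 6 from 71199827 to 71205023, + strand), the liver fatty acid binding protein, gave 11513 ± 10140 counts in C57.CTL.F1 and 4847 ± 2597 in its exposed counterpart C57.D300.F1, then 93.7 ± 29.7 in C57.D300.F2, and in FVB/N 31.1 ± 11.5 with vehicle and 15.3 ± 7.80 with DEHP. The highest and the lowest of these conditions were 754 times apart. Fabp1 was among the genes that the study selected on these same samples, so its differences are not independent evidence. Of all counts of the 35 genes it made up 44.4% in the vehicle and 27.2% in the DEHP condition of C57BL/6J F1, but 1.31%, 0.522% and 0.281% in C57.D300.F2 and the vehicle and DEHP conditions of FVB/N.

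Fabp4, the adipocyte counterpart of Fabp1, was spread over a range of 1.77 times, with 371 ± 93.3, 232 ± 63.7, 245 ± 62.1, 276 ± 72.7 and 210 ± 63.0 counts. Per kb, Fabp1 was thus 50.3 times Fabp4 in C57.CTL.F1, while in FVB.CTL.F1 Fabp4 was 5.48 times Fabp1. Fabp3, the heart and muscle form, was low throughout, at 13.2 ± 5.92, 27.4 ± 10.3, 17.4 ± 7.0, 13.2 ± 5.74 and 12.3 ± 5.48 counts. Lpl, the lipase that frees fatty acids from circulating lipoproteins, was one of the steadiest members, with 952 ± 253, 896 ± 223, 1003 ± 256, 879 ± 233 and 702 ± 193 counts.

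Plin2, which coats lipid droplets, had 958 ± 336, 758 ± 236, 118 ± 31.2, 46.8 ± 14.6 and 49.8 ± 15.4 counts, so that FVB.CTL.F1 was 20.5 times below C57.CTL.F1. Angptl4, a secreted inhibitor of lipoprotein lipase, had 419 ± 121, 216 ± 62.6, 109 ± 29.7, 40.6 ± 13.1 and 41.7 ± 13.5 counts. Cd36, the fatty acid translocase, had 1062 ± 274, 874 ± 231, 634 ± 156, 399 ± 96.8 and 360 ± 96.4 counts. For all 3 genes both reused conditions lay above the 3 newly made ones, and C57.D300.F2 lay above both FVB/N conditions.

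The carnitine shuttle carries long-chain acyl groups into mitochondria. Cpt1a, its rate-limiting liver enzyme, had 801 ± 211, 861 ± 243, 518 ± 122, 269 ± 62.8 and 311 ± 89.3 counts. Cpt1b, the muscle form, had 153 ± 69.9, 141 ± 66.9, 108 ± 46.1, 34.1 ± 60.1 and 38.6 ± 43.1 counts. The model SD of Cpt1b exceeded the count in both FVB/N conditions, and 9459 bases of the gene are shared with the readthrough gene Gm44502 on the same strand, so its values are uncertain. Per kb, Cpt1a was 3.22 to 5.41 times Cpt1b over the 5 conditions.

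Downstream of these, Cpt2, the inner membrane transferase, had 397 ± 98.9, 514 ± 142, 217 ± 51.5, 189 ± 45.4 and 151 ± 37.3 counts. Slc25a20, the carnitine-acylcarnitine translocase whose promoter is shown above, had 351 ± 104, 299 ± 81.3, 96.2 ± 25.8, 56.9 ± 16.9 and 69.0 ± 20.0 counts. Against vehicle C57BL/6J, all 4 shuttle genes were called lower in FVB.CTL.F1, where 18.8% of all genes compared were, and Slc25a20 was called lower in C57.D300.F2, where 10.2% were. The call of Cpt2 in FVB.CTL.F1 was lost with equal totals (log2 ratio -0.88) and with upper-quartile scaling (-0.90).

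Acyl-CoA dehydrogenases open each round of mitochondrial beta-oxidation, and the trifunctional protein completes it. The dehydrogenases among the members, Acadm, Acadl and Acadvl, were called lower in C57.D300.F2 and FVB.CTL.F1 than in vehicle C57BL/6J, against 10.2% and 18.8% of all genes. Neither gene of the trifunctional protein was called, and these calls do not extend to every acyl-CoA dehydrogenase. Acadm, the medium-chain enzyme, had 1062 ± 326, 760 ± 216, 270 ± 63.0, 273 ± 63.7 and 249 ± 58.4 counts. Acadl, the long-chain enzyme, had 458 ± 127, 550 ± 152, 159 ± 39.4, 96.6 ± 25.98 and 85.9 ± 23.8 counts. Acadvl, the very-long-chain enzyme, had 639 ± 194, 543 ± 152, 216 ± 51.9, 184 ± 44.4 and 170 ± 42.1 counts. Acadvl overlaps Dvl2 on the other strand over 2119 bases.

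Hadha and Hadhb encode the subunits of the trifunctional protein from neighbouring genes on chromosome 5. Hadha had 1146 ± 306 and 1129 ± 312 counts in the vehicle and DEHP conditions of C57BL/6J F1 and 694 ± 164, 702 ± 170 and 678 ± 161 in C57.D300.F2 and the vehicle and DEHP conditions of FVB/N. Hadhb had 1041 ± 265, 879 ± 225, 666 ± 155, 616 ± 146 and 538 ± 126 counts. Their log2 ratios against C57.CTL.F1 were -0.72 and -0.64 in C57.D300.F2 and -0.71 and -0.76 in FVB.CTL.F1, in each case larger than the model SD and short of the limit.

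In peroxisomes, Ehhadh, the bifunctional enzyme, had 650 ± 214, 478 ± 138, 207 ± 50.02, 216 ± 51.9 and 188 ± 45.7 counts. The thiolases Acaa1a and Acaa1b lie on chromosome 9 and are near-identical, so reads may be divided between them uncertainly. Acaa1b had 892 ± 331, 715 ± 249, 30.2 ± 11.3, 13.8 ± 6.00 and 8.96 ± 4.604 counts. Acaa1a had 579 ± 145, 425 ± 102, 347 ± 80.3, 222 ± 53.0 and 203 ± 48.9 counts. Acaa1b was at 1.61 and 1.75 times Acaa1a per kb in C57.CTL.F1 and C57.D300.F1, and at 0.0909, 0.0648 and 0.0460 times in C57.D300.F2 and the vehicle and DEHP conditions of FVB/N. Acaa1a overlaps Slc22a14 on the other strand over 10624 bases.

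The acyl-CoA thioesterases Acot1 to Acot4 lie side by side on chromosome 12 and are close paralogs, with the same limit. Acot1, the cytosolic form, had 67.8 ± 19.6, 61.1 ± 18.4, 64.1 ± 18.6, 69.4 ± 20.2 and 49.5 ± 15.2 counts. Acot2, the mitochondrial form, had 93.1 ± 25.5, 87.3 ± 23.7, 105 ± 27.8, 97.7 ± 26.3 and 95.1 ± 25.7 counts, the narrowest range of the 35 genes at 1.21 times. The peroxisomal forms were scarce. Acot3 had 5.84 ± 3.46, 11.8 ± 5.48, 16.9 ± 6.93, 9.32 ± 4.58 and 8.80 ± 4.69 counts, and Acot4 had 17.7 ± 7.75, 24.6 ± 9.90, 7.64 ± 4.00, 4.92 ± 3.16 and 5.41 ± 3.16. Both overlap the gene model Gm49366 on the same strand in part, over 6470 and 9667 bases. Pex11a, which drives peroxisome division, ran against most of the set in FVB/N, with 45.4 ± 14.2, 54.2 ± 17.9, 44.4 ± 14.3, 77.2 ± 21.7 and 86.1 ± 23.7 counts.

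Of the other targets, Vnn1, a pantetheinase of liver and kidney, had 114 ± 35, 73.8 ± 22.6, 5.32 ± 3.33, 2.14 ± 2.00 and 6.39 ± 3.61 counts. The ratio of C57.CTL.F1 to FVB.CTL.F1 was 53.2, with a 95% counting interval from 14.9 to 400, which covers counting error only. Pdk4, the kinase that shuts pyruvate out of the citrate cycle when fat is burnt, had 40.5 ± 13.1, 92.6 ± 26.2, 53.7 ± 17.0, 16.8 ± 7.0 and 17.3 ± 7.07 counts. Fgf21, the fasting hormone of liver, stayed between 2.48 ± 2.00 and 6.27 ± 4.37 counts, and was compared nowhere. Ucp3, the muscle uncoupling protein, had 5.77 ± 3.46, 10.1 ± 4.90, 7.02 ± 3.74, 8.06 ± 4.12 and 5.17 ± 3.32 counts.

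Prenatal DEHP was compared with vehicle within each strain and library set. In C57BL/6J, 34 members had enough counts, 1 was called higher and 1 lower, against 1.09% and 1.15% of the 16825 genes compared. Pdk4 was the one higher in C57.D300.F1, by 2.28 times (log2 ratio 1.17), a difference of 52.0 counts beside a model SD of 29.3. Fabp1 was the one lower (log2 ratio -1.25), but its difference of 6666 counts stayed within a model SD of 10467. The median log2 ratio of the members was -0.11, and of all genes compared -0.01. After scaling the conditions to equal totals these medians were 0.05 and 0.14.

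Members just short of the limit in C57BL/6J were Fabp3, at a log2 ratio of 0.998, Angptl4 at -0.95 and Acot3 at 0.90. The differences of Fabp3, Angptl4 and Fabp4 (-0.67) were larger than their model SD, as was that of Pdk4 and of no other member. Of the 34 compared, 26 lay within 0.5 of 0. The receptors Ppara, Ppard and Pparg had log2 ratios of 0.38, -0.33 and 0.02, all within their model SD.

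In FVB/N, none of the 30 members compared was called in either direction, against 2.16% higher and 0.619% lower over 16471 genes. Their log2 ratios ran from -0.98 for Fabp1 to 0.37 for Rxrg, with a median of -0.10 against 0.00 for all genes. Fabp1 was the only one whose difference, from 31.1 to 15.3 counts, was larger than its model SD. Ppara, Ppard and Pparg had log2 ratios of -0.41, -0.04 and -0.54, all within the model SD.

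**Figure D2:**
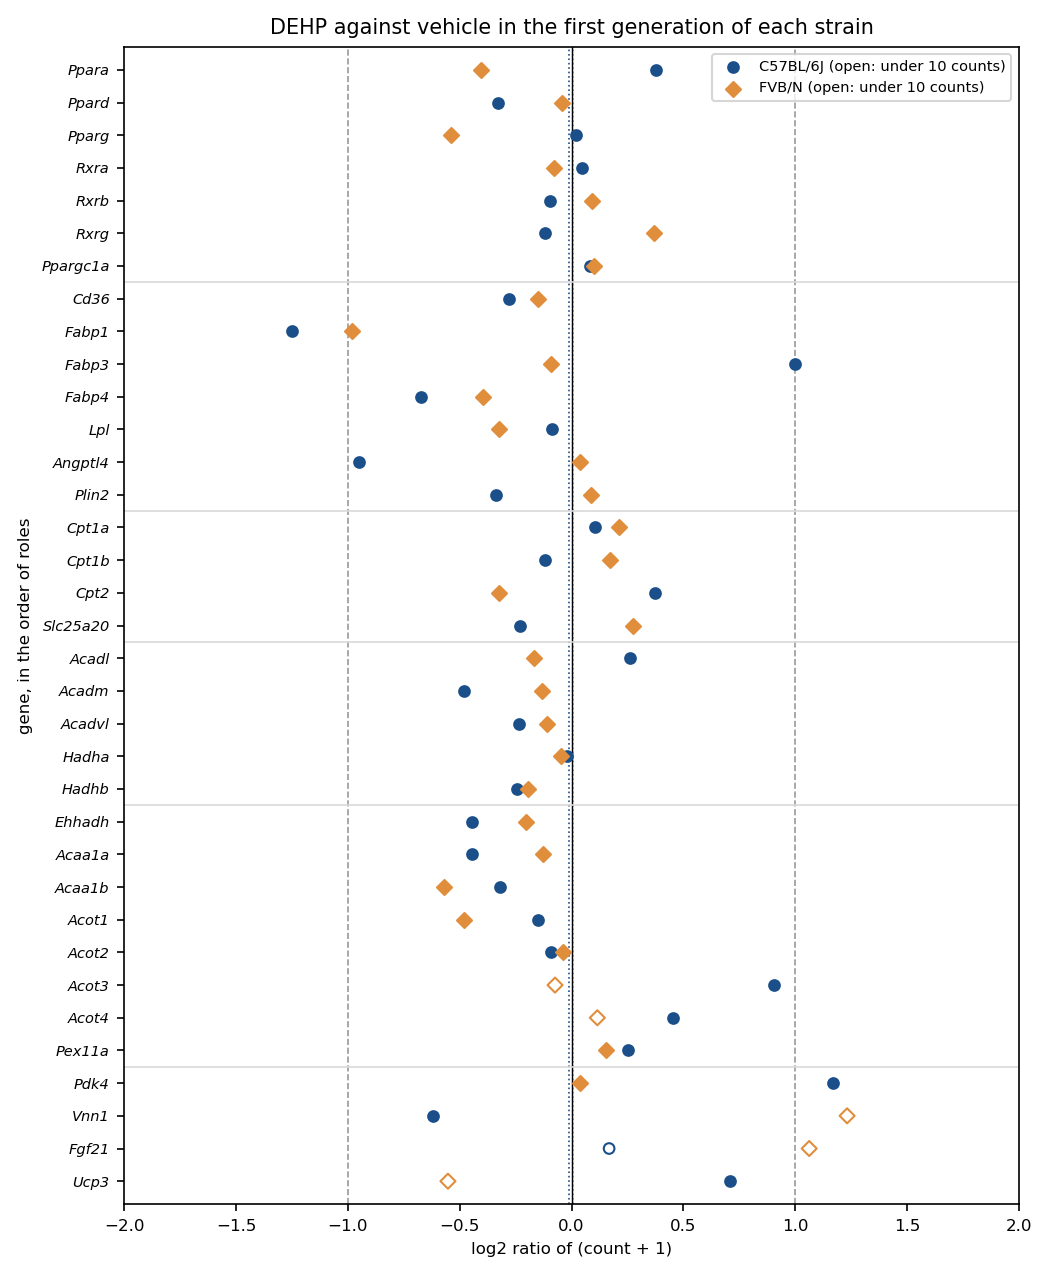
Log2 ratio of (count + 1) of DEHP to vehicle (horizontal axis) for each of the 35 genes, in the order of roles; circles are C57BL/6J, diamonds are FVB/N, open symbols had under 10 counts in both conditions, dashed lines mark the limit of 1 and dotted lines the median of all genes. Most symbols lie within 0.5 of 0, with Pdk4 (1.17) and Fabp1 (-1.25) past the limit in C57BL/6J and no filled diamond past it.

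The ratio in FVB/N minus that in C57BL/6J was past 1 for Vnn1 (1.85) and past -1 for Fabp3 (-1.09), Pdk4 (-1.13) and Ucp3 (-1.26), that is 1 and 3 of 34 members against 4.45% and 2.92% of 17556 genes. Vnn1, Fabp3, Ucp3 and Pdk4 all rested on under 30 counts in at least 1 of the 4 conditions, so these differences carry little precision. In both FVB/N conditions Vnn1 (2.14 and 6.39 counts) and Ucp3 (8.06 and 5.17) were under the minimum of 10. They entered through C57BL/6J alone, Ucp3 only through C57.D300.F1 (10.1 counts). The difference was not tested, since no library values were at hand.

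Markers of striated muscle differed between the strains in the same direction as Pdk4, Fabp3 and Ucp3, which muscle expresses, and against that of Cpt1b and Rxrg, the other members with a muscle form. Cpt1b had log2 ratios of -0.12 in C57BL/6J and 0.17 in FVB/N (difference 0.29), and Rxrg of -0.12 and 0.37 (difference 0.49). Of 11 muscle markers, 7 were called higher and 0 lower with DEHP in C57BL/6J, against 1.09% and 1.15% of all genes. In FVB/N 0 were higher and 2 lower, against 2.16% and 0.619%. For all 11 the difference between the strains was past -1, against 2.92% of all genes. Their sum was 3272 counts in C57.CTL.F1 and 6883 in its exposed counterpart C57.D300.F1, then 2971 in C57.D300.F2, and in FVB/N 1190 with vehicle and 712 with DEHP, led by Myh4 and Acta1, and none was at 0. The part of muscle RNA in these values was not tested, and in a mixed preparation fewer cells of a type and less RNA per cell cannot be told apart. All 11 epididymal markers were called higher in FVB.D300.F1 than in vehicle FVB/N, against 2.16% of all genes, with sums of 39895 and 226 counts. Some of them, Gpx5 and Lcn5 included, were among the genes that the study selected on these same samples, so this is not independent evidence. Between C57.D300.F2 and FVB.CTL.F1 only 5 of the 11 had enough counts, so the others were compared in FVB/N through FVB.D300.F1 alone.

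Between C57.D300.F2 and vehicle C57BL/6J F1, which is not its ancestor, 33 members could be compared. This comparison is one of exposure of the lineage, generation and library set at once. In C57.D300.F2, 14 were called lower and 1 higher than in vehicle C57BL/6J, against 10.2% and 4.10% of 17114 genes, and all 15 differences were larger than their model SD. The median log2 ratio was -0.74 for the members and -0.04 for all genes. The 14 were Fabp1 (-6.93), Acaa1b (-4.84), Vnn1 (-4.19), Plin2 (-3.01), Ppara (-2.83), Acadm (-1.97), Angptl4 (-1.93), Slc25a20 (-1.86), Ehhadh (-1.65), Pparg (-1.62), Acadvl (-1.56), Acadl (-1.52), Rxrg (-1.31) and Acot4 (-1.11). Acot3 (1.39) was the one higher. The call of Acot4 was lost with equal totals (-0.82), upper-quartile scaling (-0.86) or 10 counts added (-0.65), and with 10 counts added those of Rxrg (-0.58) and Acot3 (0.76) were lost too. By role they were 3 of 7 receptors and partners, 3 of 7 lipid binding and storage genes, 1 of 4 shuttle genes, 3 of 5 of mitochondrial oxidation, 3 of 8 of peroxisomal oxidation and hydrolysis, and 1 of 2 compared other targets.

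Against C57.D300.F1, which comes from the same earlier set as the vehicle condition, C57.D300.F2 had 13 of 33 members lower and 0 higher, beside 8.35% and 2.69% of 17133 genes. The median log2 ratio was -0.73. Fabp1 (-5.68), Acaa1b (-4.52), Vnn1 (-3.56), Ppara (-3.21) and Plin2 (-2.68) again had the lowest ratios. The F2 values enter both comparisons, so the second is no repeat of the first.

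In the strain comparison without DEHP, 19 of 32 members were called lower in FVB.CTL.F1 than in vehicle C57BL/6J and 0 higher, against 18.8% and 7.50% of 17086 genes. All 19 differences were larger than their model SD. The median log2 ratio was -1.39 for the members and -0.03 for all genes. The lowest ratios were those of Fabp1 (-8.49), Acaa1b (-5.92), Vnn1 (-5.19), Plin2 (-4.33), Angptl4 (-3.33), Ppara (-3.15) and Slc25a20 (-2.60). Cpt1a, Cpt1b, Cpt2, Acadl, Acadm, Acadvl, Ehhadh, Acaa1a, Acot4, Cd36, Pparg and Pdk4 made up the rest, at -1.07 for Cpt2 to -2.23 for Acadl. The calls of Acot4 (-0.89) and Pdk4 (-0.92) were lost with 10 counts added, and that of Cpt2 with the 2 scalings given above.

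**Figure D3:**
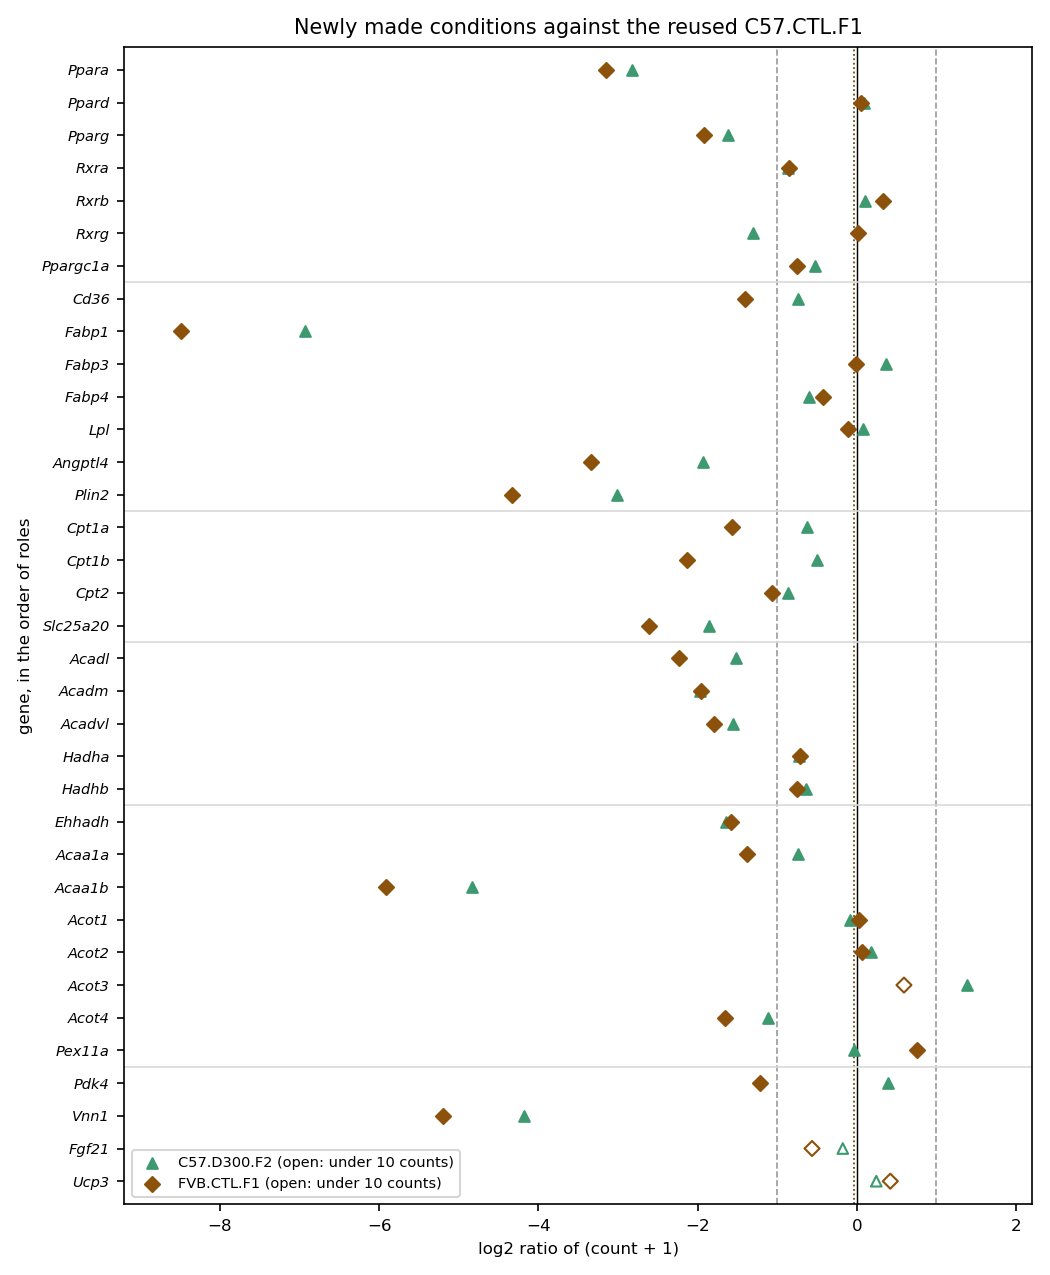
Log2 ratio of (count + 1) of C57.D300.F2 (triangles) and FVB.CTL.F1 (diamonds) to C57.CTL.F1 (horizontal axis) for each of the 35 genes, in the order of roles; open symbols had under 10 counts in both conditions, dashed lines mark the limit of 1 and dotted lines the median of all genes. Both newly made conditions lie left of -1 for Ppara, Pparg, Fabp1, Angptl4, Plin2, Slc25a20, Acadl, Acadm, Acadvl, Ehhadh, Acaa1b, Acot4 and Vnn1.

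The comparison of C57.D300.F2 with FVB.CTL.F1 is one of strain, generation and exposure at once, but both sets of libraries were newly made. Of 31 members, 6 were called higher in C57.D300.F2 and 1 lower, against 11.6% and 4.20% of 16969 genes, and the median log2 ratio was 0.23. Cpt1b (1.63), Pdk4 (1.62), Fabp1 (1.56), Angptl4 (1.41), Plin2 (1.31) and Acaa1b (1.08) were higher, and Rxrg (-1.32) was lower. The difference of Cpt1b stayed within its model SD. Ppara, with 84.5 and 67.3 counts, Pparg, with 19.2 and 15.3, and Acadm, with 270 and 273, did not pass the limit.

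The split by library set was looked at over all 5 conditions, with the values already known. For 22 of 34 members both reused conditions lay above all 3 newly made ones, which was the case for 31.0% of 17701 genes. For 12 of them the lower reused value was at least 2 times the highest new one, against 6.14% of genes. These were Ppara, Pparg, Fabp1, Plin2, Slc25a20, Acadl, Acadm, Acadvl, Ehhadh, Acaa1b, Acot4 and Vnn1. For 3 members, Ppard, Rxrb and Acot2, both reused conditions lay below all new ones, against 24.9% of genes. The split holds FVB/N and the second generation on one side and first generation C57BL/6J on the other, so that library set, strain and generation cannot be told apart for it.

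Markers of liver were split by library set in the same direction as these 12 genes. The 17 liver markers summed to 267373 counts in C57.CTL.F1 and 217771 in its exposed counterpart C57.D300.F1, then 6067 in C57.D300.F2, and in FVB/N 1559 with vehicle and 1152 with DEHP, that is 3.11%, 2.81%, 0.0876%, 0.0206% and 0.0139% of the total. All 17 were called lower in C57.D300.F2 and in FVB.CTL.F1 than in vehicle C57BL/6J, with median log2 ratios of -5.51 and -7.30, against 10.2% and 18.8% of all genes. In C57.D300.F2, 16 were called higher than in vehicle FVB/N, against 11.6% of all genes. Albumin (Alb) had 83529, 100464, 2559, 524 and 349 counts, and none of the 17 was at 0 in any condition. The 35 genes made up 0.302%, 0.230%, 0.104%, 0.0787% and 0.0656% of the total in the same order. The part of liver RNA in the members' values was not tested.

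**Figure D4:**
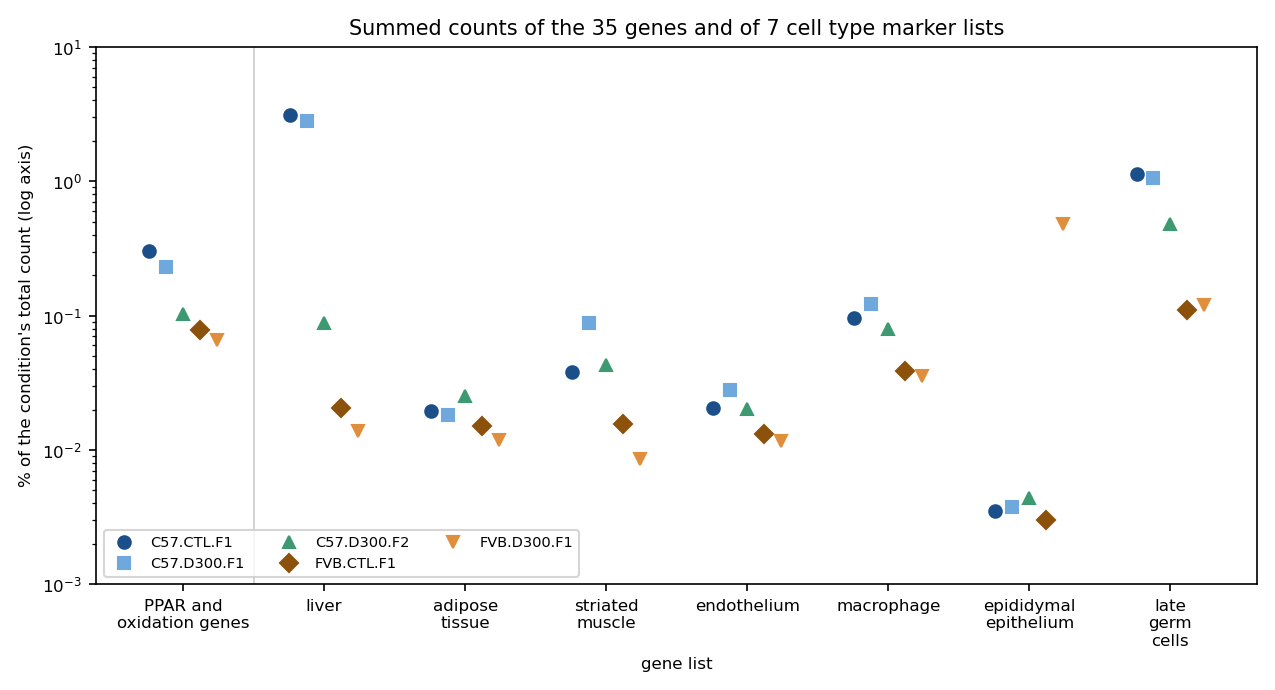
Summed counts of the 35 genes and of 7 marker lists as percent of the total count of each condition (vertical log axis); symbols are the 5 conditions. The liver markers go from 3.11% in C57.CTL.F1 to 0.0139% in FVB.D300.F1 and the 35 genes from 0.302% to 0.0656%, while the adipose markers stay between 0.0118% and 0.0253%.

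Markers of late germ cells, the labelled cell type, were lower in the newly made conditions as well. The 13 were all present, led by Smcp and Odf1, and summed to 97793, 82233, 33331, 8334 and 9983 counts. Against vehicle C57BL/6J, 10 were called lower in C57.D300.F2 and 13 in FVB.CTL.F1, with median log2 ratios of -1.19 and -3.03 and 0 higher, and all 13 were called higher in C57.D300.F2 than in vehicle FVB/N. Of all genes compared, 10.2% and 18.8% were lower in the first 2 comparisons and 11.6% higher in the last. The part of germ cell RNA in the members' values was not tested. The 9 adipose markers, led by Cfd and Lipe, stayed between 980 and 1749 counts, the 9 endothelial ones, led by Kdr and Cdh5, between 969 and 2183, and the 9 macrophage ones, led by Lyz2 and Mrc1, between 2910 and 9427. Of these, 1 adipose, 1 endothelial and 2 macrophage markers were called lower in C57.D300.F2 than in vehicle C57BL/6J, and 1, 3 and 7 in FVB.CTL.F1, with 0 higher. The shares of all genes were again 10.2% and 18.8% lower, so that 1 of 9 was not above them by much. The 11 epididymal markers summed to 226 to 303 counts in the conditions other than FVB.D300.F1. In each of those conditions 4 or 5 of them were at or under 3 counts. Gpx5 and Lcn5 had the highest means over the 5 conditions, but Lcn5 through FVB.D300.F1 alone, with 6686 counts there and 0.542 to 9.18 elsewhere. No marker of any list was at 0.

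Of 119 further genes of the pathway, 116 could be compared between C57.D300.F2 and C57.CTL.F1, of which 49 were called lower and 2 higher, and 50 were lower and 5 higher in FVB.CTL.F1 than in vehicle C57BL/6J. Over all genes compared, 10.2% were lower and 4.10% higher in the former and 18.8% and 7.50% in the latter, which is the background of the lists that follow too. With DEHP in C57BL/6J, 4 of 116 were lower and 0 higher, against 1.15% and 1.09% of all genes. They were Cyp4a14 (275 to 130 counts), Cyp4a10 (124 to 60.4), Fabp2 (181 to 71.1) and Mfsd2a (43.0 to 20.6). Their log2 ratios were -1.08, -1.02, -1.34 and -1.03, so that all but Fabp2 were just past the limit. Equal totals moved the median of all genes in this comparison by 0.15, and the calls of pathway genes were not recomputed under that scaling. In FVB/N, 1 of 107 was lower and 0 higher, against 0.619% and 2.16%, Mfsd2a (888 to 242).

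Most ketone body genes were lower in the newly made conditions. Of 8 genes, 6 were lower in C57.D300.F2 and 7 in FVB.CTL.F1 than in vehicle C57BL/6J, with 0 higher. Bdh1, which reduces acetoacetate, had 305, 290, 61.0, 78.7 and 70.4 counts in the order of conditions used above. The testis forms of the ketone transferase, Oxct2b and Oxct2a, had 95.1 and 42.2 counts in C57.CTL.F1 and 6.72 and 6.55 in FVB.CTL.F1.

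Of 27 other mitochondrial oxidation genes, 15 were lower in C57.D300.F2 and 14 in FVB.CTL.F1 than in vehicle C57BL/6J, with 1 higher in each, Acsl6. Acsm1 and Acsm5, the medium-chain acyl-CoA synthetases, had 564 and 333 counts in vehicle C57BL/6J, 17.7 and 15.1 in C57.D300.F2, and 6.27 and 7.03 in vehicle FVB/N. Acaa2, the mitochondrial thiolase, had 1762, 1318, 228, 189 and 209 counts over the 5 conditions.

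Of 33 other peroxisomal genes, 12 and 13 were lower in the same comparisons, and Pex10 alone was higher, in FVB.CTL.F1. Acot12, Acox2 and Hacl1, a thioesterase, the branched-chain oxidase and the lyase of alpha-oxidation, had 265, 277 and 844 counts in vehicle C57BL/6J and 10.8, 13.6 and 67.5 in C57.D300.F2.

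Of 6 omega-hydroxylases of the Cyp4a group, 5 could be compared with C57.CTL.F1, of which 4 were lower in C57.D300.F2 and 0 higher, and 3 were lower and 1 higher in FVB.CTL.F1. Cyp4a10 had 124 and 60.4 counts in the reused vehicle and DEHP conditions and 2.43, 2.91 and 2.32 in C57.D300.F2 and the vehicle and DEHP conditions of FVB/N. These genes are paralogs whose identity was not computed, so reads may be divided between them uncertainly.

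The coregulators, which serve many nuclear receptors, differed little. Of 14, only Lpin1 was called against C57.CTL.F1, with 2584, 2080, 1169, 367 and 432 counts, and the median log2 ratio was 0.18 in C57.D300.F2 and 0.23 in FVB.CTL.F1. Ppargc1b, the close relative of Ppargc1a, was lower in C57.D300.F2 (24.7 counts) than in vehicle FVB/N (56.5 counts). Of 31 other PPAR targets, 29 could be compared, of which 11 and 12 were lower in C57.D300.F2 and FVB.CTL.F1 than in vehicle C57BL/6J, and 1 and 2 higher. Slc27a5, the liver bile acid and fatty acid ligase, had 1547 counts in vehicle C57BL/6J, 38.6 in C57.D300.F2 and 15.4 in vehicle FVB/N. Apoa5, a plasma apolipoprotein made in liver, had 1405, 46.2 and 13.8 counts in the same conditions.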

How the data were processed

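All-RNA-seq libraries of cauda epididymal sperm were made after TRIZOL extraction, ribosomal RNA depletion and fragmentation with a small RNA kit. Per the submitters' processing notes and the methods of the study, base calls came from CASAVA 1.8.2, reads of at least 18 bases were mapped to mm10 with TopHat in strand-specific mode, and genes were quantified with Cuffdiff. The release of the annotation and the options of Cuffdiff are not given in the sources used here, nor whether the counting kept strand, so overlapping genes are uncertain. The deposited values are 1 normalised signal per gene and condition, an estimated count over 5 libraries, and a deposited model variance, used as a score whose square root is the model SD. Values with a failed status were left out (71 genes, no member). Whether the libraries of a condition came from separate animals does not enter these pooled values.

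From these, log2 of (count + 1) was compared between conditions for genes with at least 10 counts in 1 of both, with a limit of 1. No test could be run on 1 value per condition, and the precision is that of the model SD and of counting, for which a floor of 3 counts was used. Exon lengths and positions came from GENCODE M21 (GRCm38), start sites from RefSeq. Python 3.11.15, numpy 2.4.6, pandas 2.3.3 and scipy 1.17.1 were used, and the steps were tested on simulated data.

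The members and all lists were chosen with earlier results of these data known. The text names every member. Of each other pathway list it may name, per comparison, the 3 largest rises and falls past the limit, and of each marker list the sum and the 2 highest markers. Some genes of these lists are not reported here by name. Alternatives were other scalings, added counts, minimum counts and limits, values under 3 counts set to 3, the model SD as a further limit, and leaving out close paralogs or Fabp1.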

Additional observations from a re-analysis of the deposited data

How the results depend on the processing

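Each count and median of the members was recomputed under 12 alternatives, and no direction of a named ratio turned, although some calls were lost. Further to those given above, Ehhadh between the exposed generations of C57BL/6J was lost with upper-quartile scaling (-0.99), and with 10 counts added Acot4 in that comparison (-0.97) and Rxrg (-0.58) and Acaa1b (0.76) in C57.D300.F2 against FVB.CTL.F1. The alternatives that changed a count by over 1.5 times did so mostly where the count was 0 or 1. The 1 member higher with DEHP in C57BL/6J became 3 with equal totals, 2 with upper-quartile scaling, 3 with 0.1 counts added, and 0 with a minimum of 100 counts or a limit of 2. The 1 lower, Fabp1, became 0 with a limit of 2, with the model SD as a further limit and without Fabp1. In FVB/N, 0 lower became 1 with equal totals or 0.1 counts added, and 0 higher became 2 with no minimum count. The 1 higher in C57.D300.F2 than in vehicle C57BL/6J, Acot3, became 0 with 10 counts added, a minimum of 100 counts, a limit of 2 or without close paralogs. With a limit of 2 the 14 lower in that comparison became 5, the 13 lower against C57.D300.F1 became 5 and the 19 lower in FVB.CTL.F1 became 9. Against FVB.CTL.F1, 6 higher in C57.D300.F2 became 3 with a minimum of 100 counts and 0 with a limit of 2, and 1 lower became 0 with 10 counts added, a minimum of 100 counts or a limit of 2. The 4 members past the limit for the difference between strains became 0 with 10 counts added or a limit of 2, and 1 with a minimum of 100 counts. Equal totals moved the median of all genes by 0.32 for C57.D300.F2 and 0.19 for vehicle FVB/N against C57.CTL.F1, and upper-quartile scaling by 0.28 and 0.17. With equal totals the members' median with DEHP in C57BL/6J went from -0.11 to 0.05, and that of the difference between strains from 0.05 to -0.23.

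The 11 named ratios that moved by over 0.5, all with 10 counts added, are those of genes with few counts. No paired analysis was possible because the table holds 1 pooled value per condition, and for the same reason leaving out a library was not run. Depth limits genes under about 10 counts, such as Rxrg, Acot3, Acot4, Fgf21, Ucp3 and Vnn1 in FVB/N.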

Other observations

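A few lipid genes ran opposite to the members. Acsl6, a long-chain acyl-CoA synthetase with a form in germ cells, had 1440 and 1992 counts in the vehicle and DEHP conditions of C57BL/6J F1, 9346 in C57.D300.F2, and 4677 and 5768 in the vehicle and DEHP conditions of FVB/N, so that both reused conditions lay below all 3 newly made ones. Mfsd2a, a lysophospholipid transporter, had 43.0, 20.6, 152, 888 and 242 counts in the same order. It was the only one of 119 pathway genes called lower with DEHP in both strains, with log2 ratios of -1.03 in C57BL/6J and -1.87 in FVB/N. The ratio in C57BL/6J was just past the limit, and the calls of pathway genes were not recomputed under other scalings. Cyp4a12a, a fatty acid hydroxylase of liver and kidney, had 793, 940, 1215, 1762 and 1544 counts, against the direction of the other Cyp4a genes called in FVB.CTL.F1. Mgll, the monoacylglycerol lipase, was higher in FVB.CTL.F1 (1712 counts) than in C57.CTL.F1 (795 counts).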
